A study of Mus musculus with 20 samples.

Results

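Transcripts of radial glia and astrocytes were followed in RNA of sorted mouse serotonin (5-HT) neurons. The set held 10 genes of the 22556 in the stage table, taken by symbol: Slc1a3, Sparcl1, Apoe, Aqp4, Fabp7, Vim, Nes, Dbi, Id3 and Hes5. They had been picked as signs of RNA from other cells after levels in these tables were known, so their own values are described here and carry no test. The other gene lists below were also chosen with earlier results of these data known. Their counts and p-values describe the listed genes and are not independent support.

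All mice were C57BL/6, and EYFP-positive 5-HT neurons were taken by flow cytometry. The Pet-1-/- knockout, which lacks the ETS transcription factor encoded by Fev, was compared with wild type at E15.5 (E for embryonic day). This was done once with the NuGEN Ovation V2 kit and once with the Clontech SMARTer kit, in 3 libraries per genotype and kit. Wild-type neurons were also profiled with the Clontech kit at E11.5, E15.5 and postnatal days 1 to 3 (PN), in 3 libraries per stage, and the E15.5 wild-type libraries served the stage series and the Clontech knockout comparison alike. In the ChIP experiment, Myc-tagged Pet-1 was precipitated from embryonic hindbrain carrying the transgenes ePet-mycPet-1 and ePet-EYFP, as 1 sample with 1 input. For it one label field gives wild type and E12.5 to E14.5, while the protocol gives Pet-1-/- and E15.5 as the last age. Which transgene gave EYFP to the sorted neurons is not stated for the RNA groups, and what the sort kept depended on that reporter. Whether the replicates were separate animals is not stated in the labels, so the spread and the p-values below may be technical. Levels are FPKM (sequenced fragments normalised to transcript length and library size), and libraries are named by stage and a letter. No read numbers were at hand, so the depth behind each value is unknown.

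Radial glia are the neural stem cells of the embryonic brain: they line the ventricle, give rise to neurons and later to astrocytes, and send a fibre to the outer surface. They carry the filament proteins Vim and Nes, the lipid-binding protein Fabp7 and the glutamate transporter Slc1a3, and Notch and BMP signals hold them in the progenitor state through factors such as Hes5 and Id3. Astrocytes keep Slc1a3 and add the water channel Aqp4 and the secreted proteins Sparcl1 and Apoe. Several of the genes are not exclusive to these cells: Apoe is also made by microglia, Vim by many immature and vascular cells, and Dbi by most cells.

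Pet-1 binds DNA through an ETS domain, whose core motif is GGAA. The authors' deposited peak list holds 4934 regions on mm10, with scores of 50 to 3133.01 (median 88.25). Peaks overlapped the gene span of Vim, Nes, Id3 and Hes5, which is 4 of the 10 genes (40.0%), against 34.1% of the 10075 tested genes that could be matched to RefSeq, a share near that background. The scores of these 4 peaks, 57.35 for Vim, 72.88 for Nes, 52.36 for Id3 and 78.58 for Hes5, all lay below the median of the list. In Vim the peak spanned chr2:13574203-13575051 and covered the start of the gene (chr2:13574311-13582826). In Id3 it spanned chr4:136143724-136144460 and likewise covered the start (chr4:136143822-136145392). The nearest peaks of Apoe and Sparcl1 lay 30.5 and 31.8 kb from the gene, and those of Fabp7 and Dbi 252 and 275 kb away. The 250 bases before the RefSeq start are shown for the pair of genes whose promoter window a peak overlapped, Vim (108 bases covered) and Id3 (98 bases covered), and for Fabp7, the gene of the set with the highest E15.5 level, which had no peak nearby. They are from RefSeq, GRCm38.p6, plus strand, 5′ to 3′, and capitals mark GGAA or its reverse complement TTCC.
Vim, chr2:13574061-13574310: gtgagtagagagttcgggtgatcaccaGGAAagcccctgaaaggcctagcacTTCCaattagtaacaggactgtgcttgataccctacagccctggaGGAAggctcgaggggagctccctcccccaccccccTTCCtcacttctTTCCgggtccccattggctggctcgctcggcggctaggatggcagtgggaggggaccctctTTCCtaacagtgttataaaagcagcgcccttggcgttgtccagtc
Id3, chr4:136143572-136143821: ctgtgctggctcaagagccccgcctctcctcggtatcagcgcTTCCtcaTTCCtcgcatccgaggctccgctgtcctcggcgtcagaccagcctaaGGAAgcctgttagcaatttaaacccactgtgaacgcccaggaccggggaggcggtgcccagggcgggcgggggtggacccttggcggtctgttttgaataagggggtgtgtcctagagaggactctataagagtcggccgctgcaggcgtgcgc
Fabp7, chr10:57784673-57784922: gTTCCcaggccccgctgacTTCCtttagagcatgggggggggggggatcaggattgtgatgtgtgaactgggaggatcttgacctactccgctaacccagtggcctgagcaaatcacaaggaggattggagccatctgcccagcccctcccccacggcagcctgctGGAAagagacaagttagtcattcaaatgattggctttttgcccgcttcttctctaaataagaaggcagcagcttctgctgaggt
GGAA on either strand, overlapping matches included, occurs 6 times in the Vim window, 3 times in the Id3 window and 3 times in the Fabp7 window, and it is present in 93.2% of 21263 promoter windows of this length. The longer form CCGGAA occurs 1 time in the Vim window, in neither of the others, and in 15% of all windows. Of the other lists, 12 of 26 further radial glia and progenitor genes (46.2%), 8 of 17 Notch and BMP response genes (47.1%) and 4 of 34 further astrocyte genes (11.8%) had a peak in the gene span. These lists include genes too low to be tested, so the 34.1% of tested genes is not a like background. Of all 21887 protein-coding RefSeq genes, tested or not, 21.1% had such a peak.

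In the wild-type libraries the 10 transcripts did not move as a block between stages. Slc1a3 was at or near 0 FPKM at E11.5 and present later, Sparcl1 was low at E11.5 and higher later, Aqp4 passed 2 FPKM only in PN, Vim and Nes were lower at each later stage, Fabp7 was highest at E15.5, Apoe was highest after birth, and Dbi differed little. Before the member values, the neuronal identity of the libraries was looked at: Tph2, which makes the rate-limiting enzyme of serotonin synthesis, lay between 51.0 and 305 FPKM in the 9 libraries, and 12 serotonin neuron genes summed to 1125 to 1562 FPKM in the E11.5 libraries, 529 to 645 FPKM in those of E15.5, and 526 to 810 FPKM in those of PN. Gfap, the filament protein of mature and reactive astrocytes, was at 0 to 0.0118 FPKM in the 6 embryonic libraries and at 0.206 to 1.04 FPKM in the 3 PN libraries. Other astrocyte markers differed in level. Aldh1l1, a folate enzyme, was at 0 to 0.0299 FPKM in the E11.5 libraries, 7.72 to 11.8 FPKM in those of E15.5, and 2.25 to 7.11 FPKM in those of PN. Gja1 stayed low, at 0 to 0.600 FPKM in the E11.5 libraries, 0.184 to 0.919 FPKM in those of E15.5, and 0.312 to 1.81 FPKM in those of PN. The gap junction gene Gjb6 and the neurotensin receptor gene Ntsr2 were listed at 0 in every embryonic library and detected in every PN library. In bulk RNA, fewer cells of a type and less RNA per cell cannot be told apart.

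**Figure D1:**
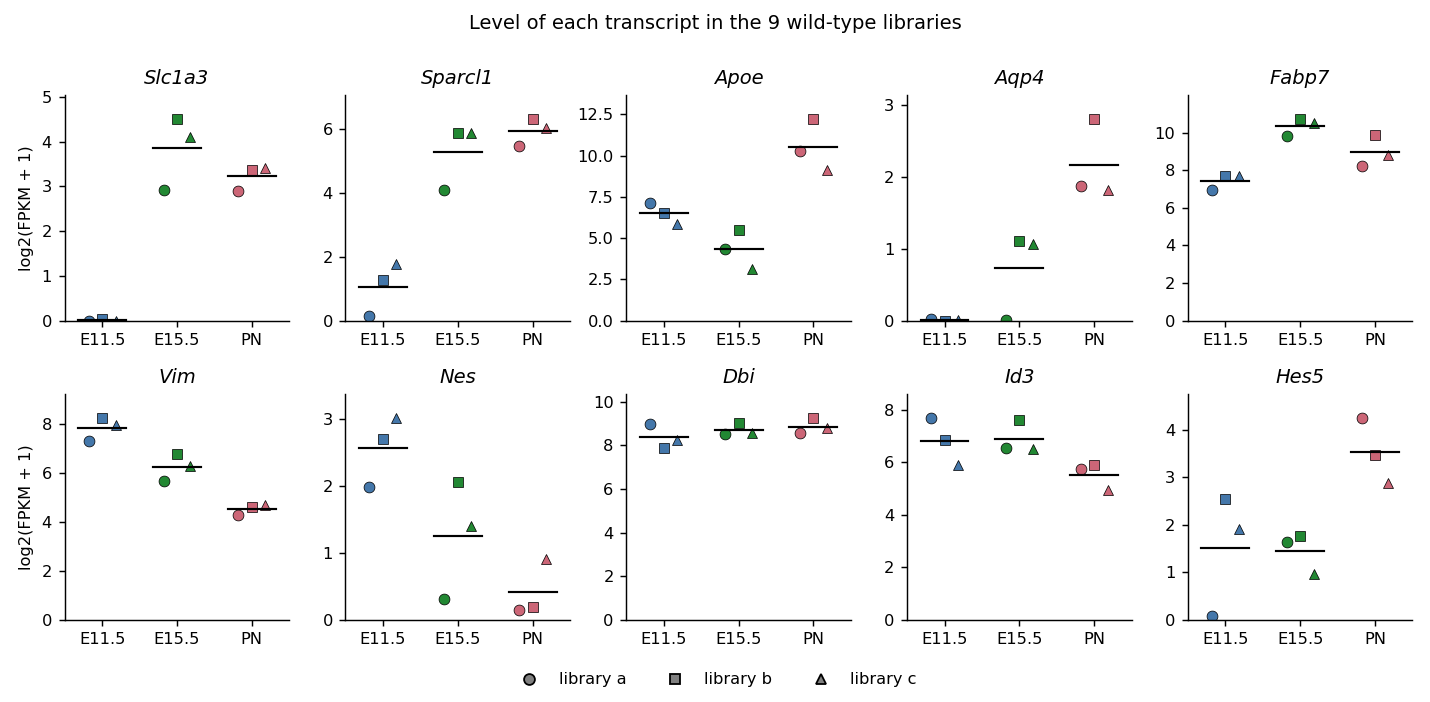
Level of each of the 10 transcripts in the 9 wild-type Clontech libraries, as log2(FPKM + 1), with 1 point per library (circle a, square b, triangle c) and a bar at the mean of a stage; each panel has its own vertical scale. The square of E15.5 is the highest point of its stage in all 10 panels, and Apoe in PN lies far above both embryonic stages.

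Slc1a3 encodes the glutamate and aspartate transporter GLAST. It was listed at 0, 0.0219 and 0 FPKM in the E11.5 libraries, at 6.63, 21.7 and 16.3 FPKM in those of E15.5, and at 6.45, 9.37 and 9.63 FPKM in those of PN. Every later library lay above every E11.5 library, whereas the E15.5 and PN ranges overlapped. On the log2(FPKM + 1) scale, which understates changes of low genes, E15.5 was 3.84 above E11.5, and PN was 0.62 below E15.5. Aqp4, the water channel of astrocyte end-feet, had 0.0129, 0 and 0.00617 FPKM in the E11.5 libraries, 0.00445, 1.15 and 1.10 FPKM in those of E15.5, and 2.65, 5.97 and 2.51 FPKM in those of PN. It was absent or nearly so in 1 E15.5 library and above 1 FPKM in the other two, and all PN libraries were higher still (PN over E15.5, log2 difference 1.43).

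Sparcl1 encodes hevin, a secreted protein of astrocytes that promotes the formation of excitatory synapses. Its level was 0.114, 1.404 and 2.42 FPKM in the E11.5 libraries, 16.3, 58.1 and 57.5 FPKM in those of E15.5, and 43.1, 78.7 and 64.8 FPKM in those of PN. The later libraries all exceeded those of E11.5 (log2 difference 4.22 for E15.5 and 4.87 for PN, each over E11.5), and E15.5 and PN overlapped. Apoe encodes the main lipid carrier of the brain. It had 140.2, 90.4 and 56.2 FPKM in the E11.5 libraries, 19.2, 44.3 and 7.80 FPKM in those of E15.5, and 1244, 4698 and 566 FPKM in those of PN. No ranges overlapped: E15.5 lay below E11.5 (log2 difference -2.17) and PN far above E15.5 (6.22). The PN libraries differed widely, so the mean of 2169 FPKM had an SD of 2216 (n = 3).

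Like Apoe, the microglia list was higher in PN than at E15.5. From E11.5 to E15.5 the directions differed, with Apoe lower and the sums of the list higher. The 18 genes of the list summed to 217, 1698 and 215 FPKM in PNa, PNb and PNc, to 27.0, 55.1 and 32.4 FPKM in the E15.5 libraries, and to 13.99 to 16.96 FPKM at E11.5. The library with the most Apoe, PNb, was thus also the one with the most microglial RNA. Of the 15 microglia genes tested, 12 rose and 0 fell in PN over E15.5 (median log2 change 3.33, against 0.01 over all 11741 genes tested; 14 and 0 at limma's unadjusted p under 0.05). Of all genes tested, 20.2% were called in either direction. C1qc, a subunit of complement C1q, was at 67.7 ± 80.8 FPKM in PN, against 0.155 ± 0.0312 FPKM in the E15.5 libraries (SD, n = 3 each; log2 change 5.21, SE 0.63, limma, adjusted p = 2.97e-04). Trem2, a lipid receptor of microglia, was at 40.9 ± 43.3 FPKM in PN, against 0.732 ± 0.860 FPKM in the E15.5 libraries (n = 3 each; log2 change 4.02, SE 0.72, limma, adjusted p = 0.00292). The count of 12 was 8 without E15.5a, PNb or PNc, and 6 without the filter on low values. The call for C1qc was lost without PNa, PNb or PNc. Of the 18 genes, Ptprc alone was at 0 in all 3 E11.5 libraries, and no gene of the list was at 0 throughout E15.5 or PN. In PNa and PNc, where Apoe was at 1244 and 566 FPKM, the microglia sums of 217 and 215 FPKM also exceeded those of every embryonic library. The part of microglial RNA in the Apoe level was not tested.

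**Figure D2:**
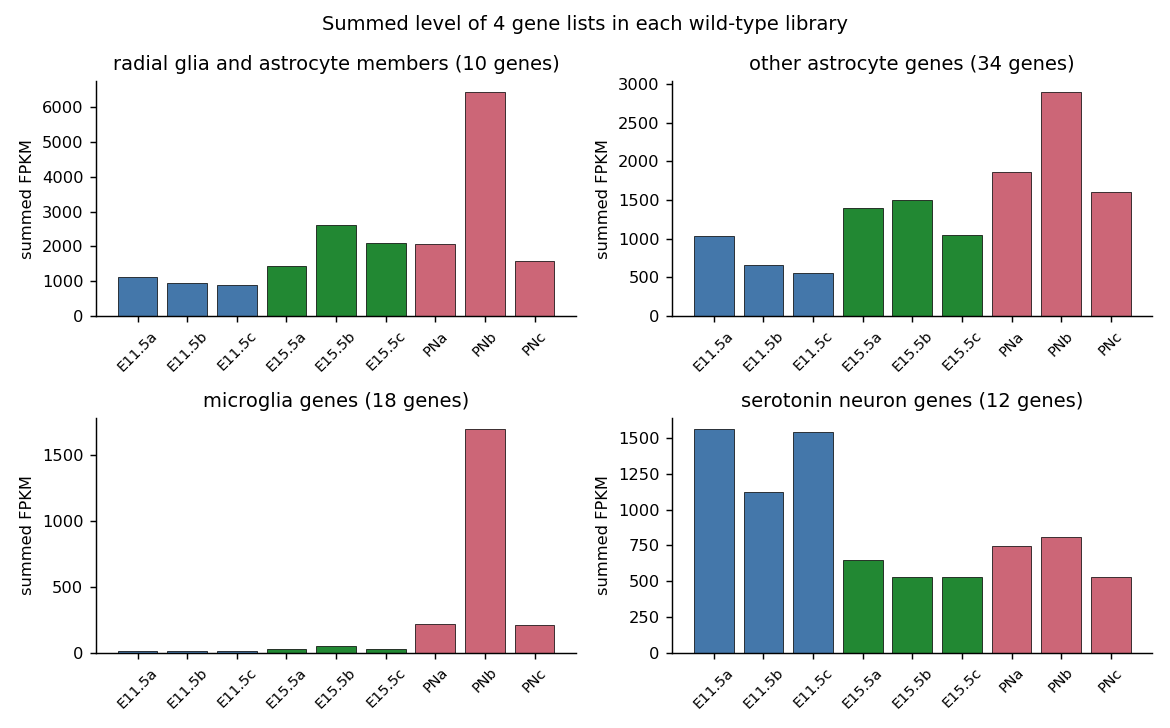
Summed FPKM of the 10 transcripts, of 34 further astrocyte genes, of 18 microglia genes and of 12 serotonin neuron genes in each wild-type library, with 1 bar per library and its own vertical scale in each panel. PNb is the highest bar for the 10 transcripts (6427 FPKM), the astrocyte genes (2892 FPKM) and the microglia genes (1698 FPKM). Apoe alone makes up 4698 FPKM of the PNb bar of the 10 transcripts.

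Fabp7 and Dbi bind fatty acids and acyl-CoA esters. Fabp7, the brain lipid-binding protein of radial glia, was at 121, 208 and 204 FPKM in the E11.5 libraries, 902, 1672 and 1466 FPKM in those of E15.5, and 301, 938 and 450.2 FPKM in those of PN. E15.5 lay above E11.5 without overlap (log2 difference 2.91), and the PN range lay lower but reached into that of E15.5 (-1.37). At E15.5 Fabp7 ranked 87th by mean level among all genes of the table. Dbi, the acyl-CoA-binding protein that is also cleaved into peptides acting on GABA-A receptors, had 501, 235 and 306 FPKM in the E11.5 libraries, 365, 515 and 378 FPKM in those of E15.5, and 377, 605 and 443 FPKM in those of PN. Its ranges overlapped between all stages, and no difference exceeded 0.49 on the log2 scale.

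Vim and Nes encode intermediate filament proteins of neural progenitors. Vim was at 158, 301 and 246 FPKM in the E11.5 libraries, 50.5, 109.9 and 76.5 FPKM in those of E15.5, and 18.7, 23.5 and 24.7 FPKM in those of PN. The ranges were separate at each step, with log2 differences of -1.58 for E15.5 over E11.5 and -1.72 for PN over E15.5. Nes was at 2.95, 5.50 and 7.08 FPKM in the E11.5 libraries, 0.237, 3.16 and 1.65 FPKM in those of E15.5, and 0.108, 0.146 and 0.877 FPKM in those of PN. It was low in every library, and its neighbouring stages overlapped, but PN and E11.5 did not (log2 difference -2.15).

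Id3 and Hes5 are regulators of the progenitor state. Id3, an inhibitor of basic helix-loop-helix factors induced by BMP signals, was at 204, 115 and 59.2 FPKM in the E11.5 libraries, 92.8, 193 and 91.5 FPKM in those of E15.5, and 52.6, 58.2 and 29.5 FPKM in those of PN. The embryonic stages overlapped (log2 difference 0.08, or -0.11 with upper quartile scaling), and every PN library lay below all embryonic ones (-1.37 for PN over E15.5). Hes5, a repressor driven by Notch, was at 0.0579, 4.85 and 2.74 FPKM in the E11.5 libraries, 2.10, 2.41 and 0.952 FPKM in those of E15.5, and 17.9, 10.1 and 6.35 FPKM in those of PN. Unlike Id3 it had its highest levels after birth, where all 3 libraries exceeded all embryonic ones (log2 difference 2.08 for PN over E15.5).

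In the limma fit over all genes, called at an adjusted p under 0.05 and a change of 1.5-fold or more, 5 of the 10 transcripts were called for E15.5 over E11.5, 3 higher (Slc1a3, Sparcl1 and Fabp7) and 2 lower (Apoe and Vim), beside 28.9% of all tested genes. For PN over E15.5 6 were called, 3 higher (Apoe, Aqp4 and Hes5) and 3 lower (Fabp7, Vim and Id3), beside 20.2% of all genes. For PN over E11.5 9 were called, 6 higher and 3 lower (Vim, Nes and Id3), beside 27.4% of all genes, and Dbi was the one without a call. The stage ranges of 5, 5 and 9 members did not overlap in these comparisons, beside 42.3%, 42.2% and 40.3% of all genes. Since the genes were chosen from these tables, nothing is read from the counts, and the comparisons share libraries. The Apoe call for E15.5 over E11.5 was lost without E11.5a, E11.5b, E15.5a or E15.5c. For PN over E15.5, the Aqp4 call was lost without E15.5a or PNb, the Hes5 call without E15.5a, E15.5c, PNa or PNb, the Fabp7 call without E15.5b, E15.5c, PNa or PNc, and the Id3 call without any of the E15.5 or PN libraries or E11.5b. Upper quartile scaling gave a median log2 change of all genes of -0.02 for E15.5 over E11.5, against 0.11 as deposited, and the higher share of the calls was 49.6%, against 60.3%. It turned the sign of no called member. For PN over E11.5, the Id3 call was lost without E11.5a, E11.5b, E15.5a, E15.5c or any PN library, the Hes5 call without E11.5a, PNa or PNb, and the Fabp7 call without PNb.

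By mean FPKM, a level per length, the order at E11.5 was Dbi, Vim, Fabp7, Id3 and Apoe, whose neighbours overlapped in range, then at far lower levels Nes, Hes5, Sparcl1, Slc1a3 and Aqp4. At E15.5 Fabp7 came first at 1347 ± 399 FPKM and Dbi next at 419 ± 83.0 FPKM (SD, n = 3), separate from each other and from the rest. Id3, Vim, Sparcl1, Apoe and Slc1a3 followed with neighbours that overlapped, and Hes5, Nes and Aqp4 closed the order below 2 FPKM. In PN Apoe, Fabp7 and Dbi came first with overlapping neighbours, followed by Sparcl1 and Id3, which also overlapped, and Nes came last at 0.377 FPKM. The libraries of a stage differed across the set: E15.5b was the highest of its stage for 10 of 10 members and E15.5a the lowest for 7, while PNb was the highest for 6 and PNa the lowest for 6.

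Across the 9 libraries, Slc1a3 and Sparcl1 had the most similar profiles within the set (Pearson r = 0.95 on log2(FPKM + 1)), and Aqp4 and Vim the most opposed (r = -0.82). Of all tested genes, the profile most like that of Slc1a3 was Pdyn (r = 0.99), which encodes the precursor of the dynorphin peptides of neurons, with means of 0.126, 21.5 and 14.1 FPKM at E11.5, E15.5 and PN. The profile of Aqp4 was like those of Tuba8 and Prrt3 (r = 0.99 and 0.98). Apoe came with 2210016L21Rik, Selm and Hpcal1 (each r = 0.98). Fabp7 came with Ttll1, Ednrb and Tmem231 (r = 0.98, 0.97 and 0.96) and Vim with Cbx1, Chgb and Xkr7 (each r = 0.98). Hes5 came with the circadian repressor Nr1d1, Htra2 and Cnnm3 (r = 0.98, 0.98 and 0.97). These correlations describe libraries that share stages.

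Further astrocyte genes, taken from a list of 34 with 25 tested, were more often called higher than lower in each stage comparison. Of all genes tested, 28.9% were called in either direction for E15.5 over E11.5, 20.2% for PN over E15.5 and 27.4% for PN over E11.5. For E15.5 over E11.5 14 rose and 1 fell (median log2 change 1.58, against 0.11 over all genes tested). Cd9, a tetraspanin of many glial cells, was at 82.1 ± 32.7 FPKM in the E15.5 libraries, against 1.84 ± 3.03 FPKM in those of E11.5 (SD, n = 3 each; log2 change 5.34, SE 0.62, limma, adjusted p = 1.14e-04). Ndrg2, a cytoplasmic protein enriched in astrocytes, had 40.9 ± 13.7 FPKM at E15.5, against 0.605 ± 0.543 FPKM at E11.5 (n = 3 each; log2 change 4.70, SE 0.39, limma, adjusted p = 1.04e-05). Aldoc, the aldolase of astrocytes, and Clu, the secreted chaperone clusterin, rose as well, with log2 changes of 3.70 and 3.57 (limma, adjusted p = 3.76e-04 and 6.00e-04). The gene that fell was Prdx6, a peroxiredoxin, with a log2 change of -0.90 (limma, adjusted p = 0.0186), a call lost without E11.5b or E15.5b. Markers of other cells moved in the same comparison: 3 of 4 oligodendrocyte lineage genes (Mbp, Olig1 and Cnp), 3 of 3 blood genes (Hba-a1, Hbb-b1 and Hbb-b2) and the 1 vascular and meningeal gene tested (Dcn) rose, while 6 of 12 serotonin neuron genes fell and 0 rose. Their part in the astrocyte gene changes was not tested. For PN over E15.5 6 rose and 1 fell (median 0.36, against 0.01), led by the metallothioneins Mt1 and Mt2 with log2 changes of 2.97 and 2.36 (limma, adjusted p = 0.00494 and 0.00426) and by Clu, at 341 ± 64.2 FPKM in PN, against 68.4 ± 15.3 FPKM at E15.5 (n = 3 each; log2 change 2.31, SE 0.54, limma, adjusted p = 0.0111). This count was 3 without E15.5a, E15.5c, PNa or PNb. For PN over E11.5 19 rose and 1 fell (median 2.17, against 0.08).

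Further radial glia and progenitor genes, 26 listed and 16 tested, moved both ways. Of all genes tested, 28.9% were called in either direction for E15.5 over E11.5 and 20.2% for PN over E15.5. For E15.5 over E11.5 4 rose and 3 fell (median log2 change 0.52, against 0.11). Tead2, a factor of the Hippo pathway, had 1.25 ± 1.44 FPKM at E15.5, against 24.2 ± 3.42 FPKM at E11.5 (n = 3 each; log2 change -3.67, SE 0.43, limma, adjusted p = 1.18e-04). Fgfbp3, a carrier of fibroblast growth factors, had 6.40 ± 1.41 FPKM at E15.5, against 0.410 ± 0.143 FPKM at E11.5 (n = 3 each; log2 change 2.38, SE 0.34, limma, adjusted p = 4.58e-04). The serine synthesis enzyme Phgdh rose too, with a log2 change of 1.79 (limma, adjusted p = 0.00986). Psat1, of the same pathway, had a log2 change of 1.67 (limma, adjusted p = 0.0468), but its ranges overlapped and its call was lost on leaving out any library except E11.5c. The count of 4 was 2 without E15.5a, E15.5b or E15.5c. For PN over E15.5 0 rose and 5 fell (median -0.43, against 0.01; 1 and 6 at limma's unadjusted p under 0.05), among them Prom1, the membrane protein CD133, and Rfx4, a factor of the neural tube, with log2 changes of -2.24 and -1.95 (limma, adjusted p = 0.0321 and 0.00197). The Prom1 call was lost without E15.5b, E15.5c, PNa or PNb. The count of 5 was 2 without E15.5a, E15.5b, PNa or PNc, and 3 without E15.5c or PNb. Of 10 Notch and BMP response genes tested, 1 rose and 3 fell for E15.5 over E11.5: Id2, a relative of Id3, rose by 4.10 on the log2 scale (limma, adjusted p = 0.00139), and Dll3, Hes6 and Dll1 fell. The 3 lower calls were 1 without E11.5b or E15.5c, with Dll1 and Hes6 lost.

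The knockout comparison asks which transcripts depend on Pet-1 in these neurons, and the authors' deposited tables give 1 FPKM per group with no value per library. Fev, the deleted gene, was at 0.308 FPKM in the knockout and 34.9 FPKM in wild type with the NuGEN kit, and at 0.423 FPKM in the knockout and 31.1 FPKM in wild type with the Clontech kit, so both knockout groups lacked nearly all of it. The kits gave different pictures of the 10 transcripts. With the Clontech kit all 10 were lower in level in the knockout; with the NuGEN kit 6 were lower and 4 higher. By the q of the authors' deposited tables (under 0.05, with a change of 1.5-fold or more and 1 FPKM or more in either group), the NuGEN kit called 3 of 7 members higher (Fabp7, Dbi and Id3) and 2 lower (Slc1a3 and Vim), where 8.18% of all genes were called higher and 4.56% lower. The Clontech kit called 0 of 9 higher and 7 lower (Slc1a3, Sparcl1, Apoe, Fabp7, Vim, Dbi and Id3), where 0.960% of all genes were called higher and 1.85% lower. These contrasts were in view when the genes were picked, so nothing is read from the counts, and the difference between the kits was not tested, because the tables were normalised separately and hold no libraries.

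**Figure D3:**
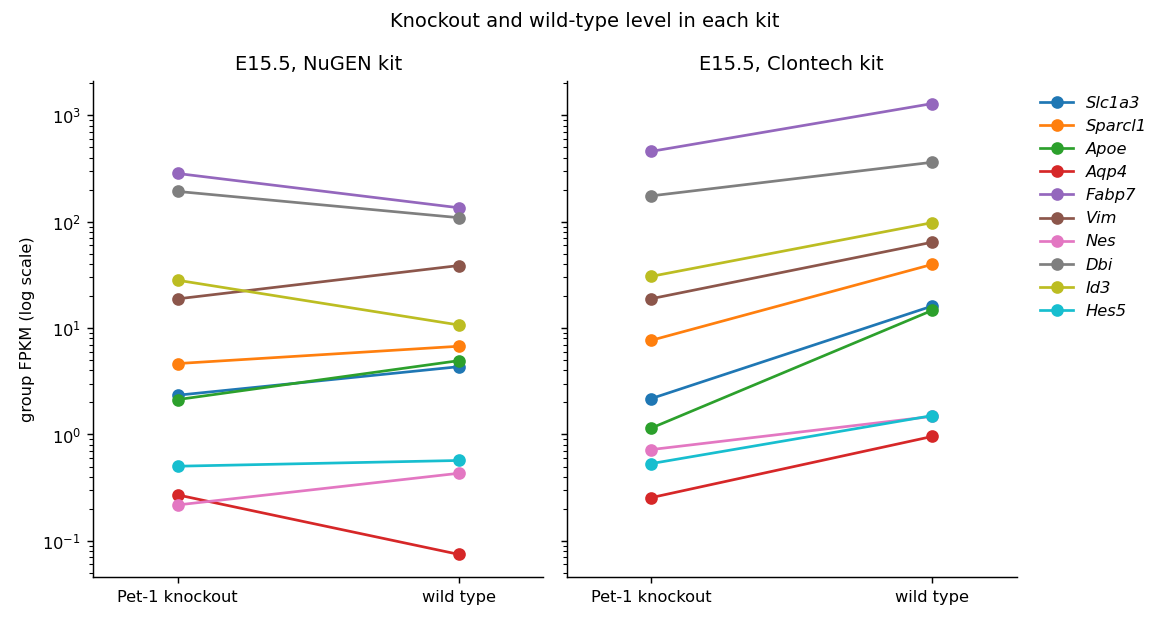
Group FPKM of each transcript in Pet-1 knockout and wild-type neurons at E15.5 on a log axis, with the NuGEN kit on the left and the Clontech kit on the right; a line joins the genotypes for each gene. All 10 lines are lower in the knockout with the Clontech kit, while Fabp7, Dbi, Id3 and Aqp4 are higher in the knockout with the NuGEN kit.

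The values below are group FPKM of the authors' deposited tables. Slc1a3 was at 2.34 FPKM in the knockout and 4.34 FPKM in wild type with the NuGEN kit, and at 2.18 FPKM in the knockout and 16.1 FPKM in wild type with the Clontech kit. The direction was shared, and the log2 ratio of knockout over wild type was -0.89 with NuGEN and -2.89 with Clontech. Aqp4 was under 1 FPKM in all 4 groups, at 0.270 FPKM in the knockout and 0.0747 FPKM in wild type with NuGEN, and at 0.255 FPKM in the knockout and 0.959 FPKM in wild type with Clontech. It therefore fell below the minimum level of 1 FPKM used here and was not counted as tested. The authors' deposited q for Aqp4 was 0.138 with NuGEN and 0.109 with Clontech.

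Among the secreted proteins, Sparcl1 was at 4.64 FPKM in the knockout and 6.75 FPKM in wild type with NuGEN, and at 7.68 FPKM in the knockout and 39.7 FPKM in wild type with Clontech. Its log2 ratios were -0.54 and -2.37. Apoe was at 2.13 FPKM in the knockout and 4.94 FPKM in wild type with NuGEN, and at 1.15 FPKM in the knockout and 14.7 FPKM in wild type with Clontech. Its Clontech log2 ratio of -3.68 was the lowest of the set, and its NuGEN ratio of -1.22 had a q of 0.0756 in the authors' deposited table. Microglia genes summed to 9.37 FPKM in the knockout and 12.1 FPKM in wild type with NuGEN, and to 12.7 FPKM in the knockout and 37.9 FPKM in wild type with Clontech. Of the microglia genes, 0 of 1 tested with NuGEN and 0 of 8 tested with Clontech were called (0 and 2 lower at the authors' unadjusted p under 0.05), and 5 and 3 of the 18 were at 0 in the knockout groups. In level, 12 of the 18 were lower in the knockout with NuGEN and 17 with Clontech, where the tested genes had a median log2 ratio of -3.18. Genes under 1 FPKM in both groups were not counted as tested. Among them, C1qa, Csf1r and Trem2 were at 0 in the Clontech knockout (authors' deposited q = 0.00391 each). C1qc and Ctss were at 0 in the NuGEN knockout (authors' deposited q = 0.00352 and 0.00473). The part of these cells in the Apoe ratios was not tested.

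The lipid-binding pair turned round between the kits. Fabp7 was at 284 FPKM in the knockout and 135 FPKM in wild type with NuGEN, and at 458 FPKM in the knockout and 1289 FPKM in wild type with Clontech, for log2 ratios of 1.07 and -1.49. Dbi was at 192 FPKM in the knockout and 109 FPKM in wild type with NuGEN, and at 175 FPKM in the knockout and 362 FPKM in wild type with Clontech, for log2 ratios of 0.82 and -1.05. In both genes the wild-type groups differed more between the kits than the knockout groups did.

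Vim, whose start lies in a Pet-1 peak, was at 18.8 FPKM in the knockout and 38.7 FPKM in wild type with NuGEN, and at 18.9 FPKM in the knockout and 64.2 FPKM in wild type with Clontech. It was called lower in the deposited tables of both kits, with log2 ratios of -1.04 and -1.76. Nes was at 0.218 FPKM in the knockout and 0.432 FPKM in wild type with NuGEN, and at 0.721 FPKM in the knockout and 1.48 FPKM in wild type with Clontech. Its log2 ratios as deposited were -0.99 and -1.04, and with 1 FPKM added to each group they were -0.23 and -0.53. It passed the minimum level with Clontech alone, where its q was 0.182. Id3, the other gene with a peak at its start, was at 28.2 FPKM in the knockout and 10.7 FPKM in wild type with NuGEN, and at 30.6 FPKM in the knockout and 98.02 FPKM in wild type with Clontech. Its knockout groups were alike in level and its wild-type groups were not, so the log2 ratios were 1.396 and -1.68. Hes5 was at 0.503 FPKM in the knockout and 0.570 FPKM in wild type with NuGEN, and at 0.533 FPKM in the knockout and 1.51 FPKM in wild type with Clontech. It was low in all 4 groups and was not called in either table.

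Set beside each other, the summed FPKM of the 10 transcripts was 533 in the knockout and 311 in wild type with NuGEN, and 695 in the knockout and 1888 in wild type with Clontech. The Clontech wild type had the highest sum of the 4 groups. Most of each sum came from Fabp7 and Dbi. With NuGEN the sum was higher in the knockout than in wild type, although 6 of the 10 transcripts were lower there. In the knockout 6 of the 10 were lower with NuGEN, and 2 of the 7 with at least 1 FPKM in both kits (Sparcl1 and Fabp7) had a log2 ratio of NuGEN over Clontech below the 5th percentile of 10213 such genes (-0.57; median 0.10). Of the other 5, Apoe had a NuGEN level of 185% of the Clontech level, and Slc1a3, Vim, Dbi and Id3 had 108%, 99.7%, 110.1% and 91.9%. In wild type all 10 transcripts were lower with NuGEN than with Clontech, with levels of 7.79% (Aqp4), 10.5% (Fabp7), 10.9% (Id3), 16.99% (Sparcl1), 26.9% (Slc1a3) and up to 60.3% (Vim) of the Clontech value. Of the same 7 members, 6 had a log2 ratio of NuGEN over Clontech below the 5th percentile of 9975 genes (-0.99; median 0.04), with Vim the exception. Since the kits were normalised separately and the genes were picked for this contrast, these ratios are a description with no test.

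**Figure D4:**
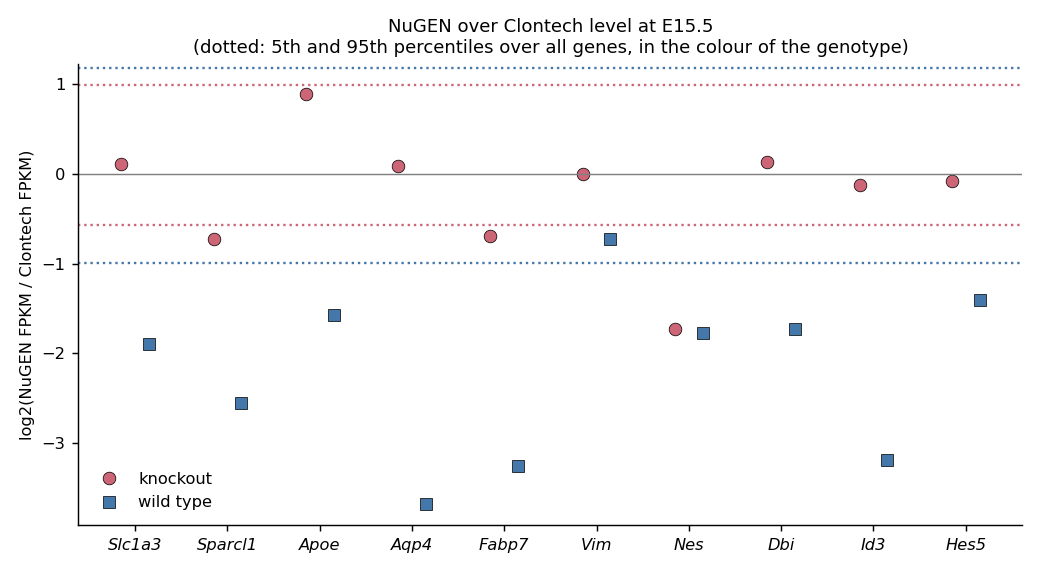
Log2 ratio of the NuGEN over the Clontech group FPKM at E15.5 for each transcript in knockout (circles) and wild type (squares), with dotted lines at the 5th and 95th percentiles over all genes with at least 1 FPKM in both kits. The wild-type squares all lie below 0, and 9 of 10 lie below the wild-type 5th percentile of -0.99. Most knockout circles lie near 0, and 3 of 10 lie below the knockout 5th percentile of -0.57. Only 7 of the 10 genes have at least 1 FPKM in both kits. Of these 7, 6 lie below the percentile in wild type and 2 in the knockout.

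Other lists were set side by side in the same way. Of 15 further astrocyte genes with at least 1 FPKM in both kits in the knockout, 8 were lower with NuGEN (median log2 ratio of NuGEN over Clontech -0.12), and of 17 in wild type 15 were lower (median -1.18). Further radial glia and progenitor genes had medians of 0.26 over 13 genes in the knockout and -1.10 over 12 in wild type. Serotonin neuron genes had medians of 0.14 over 10 genes in the knockout and 0.42 over 12 in wild type, and pan-neuronal genes 0.31 in the knockout and 0.21 in wild type over 10 genes each. Notch and BMP response genes had medians of 0.08 in the knockout and -0.28 in wild type over 7 genes each, with 0 below the 5th percentile in either genotype. The 4 oligodendrocyte lineage genes were lower with NuGEN in both genotypes, with medians of -0.62 in the knockout and -1.46 in wild type. The summed FPKM of all genes was 761700 in the knockout and 563700 in wild type with NuGEN, and 671600 in the knockout and 697500 in wild type with Clontech.

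In the authors' deposited NuGEN table, 2 of 18 further astrocyte genes rose in the knockout and 0 fell (median log2 ratio 0.20, against 0.09 over all genes tested; 3 and 1 at the authors' unadjusted p under 0.05). Of all genes tested, 8.18% were called higher and 4.56% lower with NuGEN, and 0.960% higher and 1.85% lower with Clontech. The count of 2 lies near the NuGEN share of higher genes and is not read as a result about the list. The 2 higher genes were the metallothionein Mt3, at 106 FPKM in the knockout and 40.0 FPKM in wild type (q = 0.00206), and Clu, at 43.2 FPKM in the knockout and 27.0 FPKM in wild type (q = 0.0369). In the Clontech data 0 of 22 rose and 6 fell (median -1.02, against -0.02; 0 and 13 at the authors' unadjusted p under 0.05): Aldoc, Aldh1l1, Ednrb, Cd9, Mfge8 and Ppap2b. Aldoc was at 3.64 FPKM in the knockout and 30.4 FPKM in wild type, and Aldh1l1 was at 1.35 FPKM in the knockout and 9.13 FPKM in wild type (authors' deposited q = 0.00391 each). With the NuGEN kit the same 2 genes were not called, at 5.81 FPKM in the knockout and 6.41 FPKM in wild type for Aldoc, and at 0.477 FPKM in the knockout and 1.28 FPKM in wild type for Aldh1l1.

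Of the further radial glia and progenitor genes, 1 of 15 rose and 0 fell in the authors' deposited NuGEN table (4 and 1 at an unadjusted p under 0.05). It was Fabp5, a relative of Fabp7, at 855 FPKM in the knockout and 521 FPKM in wild type (q = 0.0350). In the Clontech data 0 of 17 rose and 6 fell (median log2 ratio -1.30; 0 and 10 at an unadjusted p under 0.05): Prom1, Fgfbp3, Sox9, Ttyh1, Phgdh and Psat1. Prom1 was at 1.93 FPKM in the knockout and 12.3 FPKM in wild type (q = 0.00391), and Sox9, a factor of glial fate, at 1.31 FPKM in the knockout and 4.16 FPKM in wild type (q = 0.00723). Of the Notch and BMP response genes, Id2 alone was called in either table: of 8 tested with NuGEN it rose (log2 ratio 1.43, q = 0.00206) and of 9 tested with Clontech 0 were called, 2 of them being lower at the authors' unadjusted p under 0.05. Olig1 and Mbp, genes of the oligodendrocyte lineage, rose with NuGEN (q = 0.0432 and 0.0381). By contrast, the serotonin neuron list moved the same way in both tables, with 0 of 12 higher and 8 lower with NuGEN (median -1.94), and 0 of 12 higher and 7 lower with Clontech (median -1.10). Both counts of lower genes include Fev, the deleted gene itself, whose fall was fixed by the design. Of all genes tested, 8.18% were called higher and 4.56% lower with NuGEN, and 0.960% higher and 1.85% lower with Clontech. Beside that NuGEN share, nothing is read from the few higher calls of the glial, Notch and BMP lists.

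**Figure D5:**
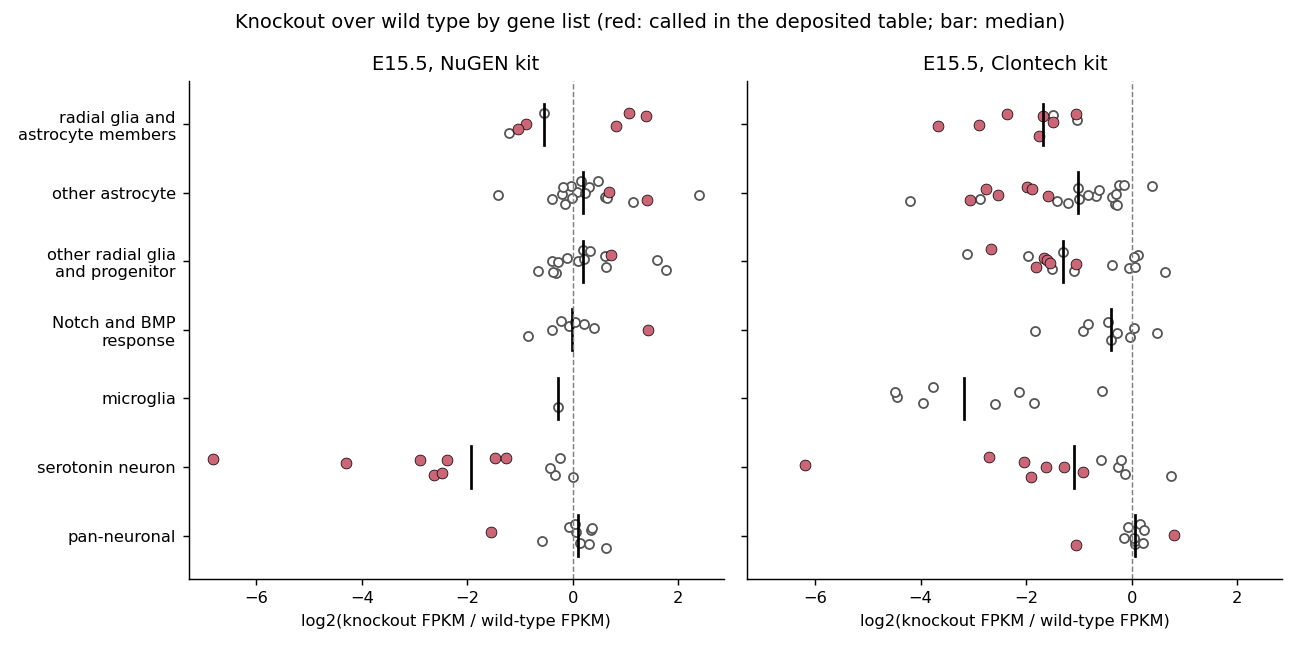
Log2 ratio of knockout over wild-type group FPKM at E15.5 for the genes tested in each list, with the NuGEN kit on the left and the Clontech kit on the right; filled points passed the call rule in the authors' deposited table and bars are list medians. The medians of the glial lists lie at -0.54 (the 10 transcripts), 0.20 and 0.19 with NuGEN, and at -1.68, -1.02 and -1.30 with Clontech, while the serotonin neuron median is below 0 in both.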

How the data were processed

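Per the submitters' processing notes, TopHat2, Cufflinks and BWA (no versions given) and MACS 1.4.2 were used, with mm9 and mm10 as builds of unstated role. The authors deposited FPKM of single libraries for the stage series, and of whole groups for each knockout comparison, in Cuffdiff form per the file headers. Beside them stand the log2 ratio, p-value and q-value that the authors deposited for each gene. Peaks were deposited on mm10, each with a score, and the list names MACS per the file headers. Expression loci are not mm10 and were not used. Any scaling of FPKM between libraries is not stated there.

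The E15.5 stage columns name no kit and were taken as the Clontech wild type from the protocol. The ratio of Clontech wild-type to stage E15.5 group FPKM had a median of 1.03 (5th to 95th percentile 0.864 to 1.20 over 10341 genes), and that of the NuGEN wild type 1.05 (0.488 to 2.41 over 9893). Columns carry no replicate numbers, so letters a to c follow column order. The 3 columns that no label matches were set aside. Of 22556 genes, 14 with a failed estimate were left out and 25 had names turned into dates. The 9 libraries summed to 630091 to 919994 FPKM, with 9614 to 11280 genes at 1 FPKM or more. Depth is unknown, so no counting error can be given.

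Stages were compared with limma 3.58.1 (R 4.3.3) on log2(FPKM + 1), as 1 fit of the 9 libraries (6 residual degrees of freedom) with the trend option for the variance, over the 11741 genes that reached 1 FPKM in 3 libraries or more. Calls needed a Benjamini-Hochberg adjusted p below 0.05 and 1.5-fold. The step was tested on simulated data. Knockout calls used the authors' q below 0.05, 1.5-fold and 1 FPKM in a group. Genes were matched by symbol, 152 of the 156 listed beside the 10 transcripts. Named genes were, per list, up to the 4 (stages) or 3 (knockout) called with the largest log2 change, and others are listed where a count is small. The set and the lists were chosen with earlier results of these data known. Alternatives were another pseudocount, no filter, other scalings, no trend, each library left out, and stricter knockout rules.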

Additional observations from a re-analysis of the deposited data

How the results depend on the processing

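No paired analysis was possible because the columns carry no replicate numbers of the labels, so the planned replicate block was not run. The 30 stage differences and 20 knockout ratios of the 10 transcripts, the ratios taken here on log2(FPKM + 1) and not as deposited, were recomputed under 460 alternatives in all. They were counted as moved in 13, all with a pseudocount of 0.1, and no called difference changed sign. The stage differences counted as moved changed by more than their spread. Knockout ratios among the 13 rest on group values, so they have no spread over libraries to be set against. Of the differences without a call, 3 changed sign in 8 alternatives: Id3 and Hes5 for E15.5 over E11.5 and Dbi for PN over E15.5, each 0.17 or less in size as reported. Counts of calls moved more. Without a filter, members lower for E15.5 over E11.5 were 1 (2 as reported), members lower for PN over E15.5 were 1 (3), radial glia and progenitor genes higher for E15.5 over E11.5 were 2 (4), also 2 with upper quartile scaling, and those lower for PN over E15.5 were 3 (5). With a pseudocount of 0.1, members higher for PN over E15.5 were 1 (3) and astrocyte genes higher 3 (6). In the NuGEN table, at q below 0.01 and equally at 2-fold, members lower were 1 (2), astrocyte genes higher 1 (2) and radial glia genes higher 0 (1). Over the leave-one-out fits, for E15.5 over E11.5, members lower ranged from 1 to 3, astrocyte genes lower from 0 to 1 and radial glia genes higher from 2 to 4. For PN over E15.5, members higher ranged from 1 to 3 and lower from 1 to 3, astrocyte genes higher from 3 to 7 and lower from 0 to 2, and radial glia genes lower from 2 to 6. The cause of these shifts was not tested. For PN over E15.5 all genes split into 1249 higher and 1121 lower, 1359 and 976 with upper quartile scaling, and 1100 and 1336 with median centring.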
